A study of Mus musculus with 14 samples.

Results

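The sublingual gland (SLG) and the submandibular gland (SMG) of the mouse were compared as whole tissue by bulk RNA sequencing. The members were chosen by their sample labels: SLG tissue replicates 1 and 2 against SMG tissue replicates 1 and 2, which are 4 of the 14 libraries of the series. Every one of the 4 came from untreated, wild-type C57BL/6 mice. The column names of the deposited table give an age of 6 weeks, and the study's methods name female mice. The series also holds 2 libraries of parotid gland (PG) tissue from the same kind of mice, and 8 organoid libraries grown from the glands, and it asks how far cultured glands keep the character of each gland. The labels call the source epithelial cells, but markers of fibroblasts, endothelium and macrophages were read in every tissue library, as given with their values further on. No source used here says whether the replicates came from separate animals or from pooled glands, so each p-value measures the spread between libraries, which may be technical.

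Saliva differs between the major glands because their secretory cells differ. Acini of the mouse SLG are mostly mucous cells that make heavily O-glycosylated mucins, capped by serous demilune cells. Acini of the mouse SMG are seromucous and release mucin-like proteins and androgen-binding proteins, and the granular convoluted tubules of its ducts make glandular kallikreins and growth factors under androgen control. Mucous cells load mucins with O-glycans in the Golgi, beginning with GalNAc transferases and going on through core, extension, capping and sulfation enzymes. Duct cells of all the glands then take sodium and chloride back from the primary saliva.

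Promoters of the most abundant products that separated the glands are shown because their levels carry the comparison. They are RefSeq sequences of build GRCm38.p6, each 300 bases long, from 250 bases before the annotated start of the gene to 50 bases after it, written 5′ to 3′ along the strand of the gene. Dcpp1, Dcpp2 and Dcpp3, the demilune cell and parotid proteins, and A2ml1, a relative of the protease inhibitor alpha-2-macroglobulin, were high in SLG. Mucl2, a mucin-like saliva protein, and Prol1, listed in RefSeq under the synonym Muc10 as well, were higher in SMG. The windows lie at chr17:23880626-23880925 (plus strand) for Dcpp1, chr17:23898472-23898771 (plus) for Dcpp2, chr17:23917208-23917507 (plus) for Dcpp3, chr6:128581557-128581856 (minus) for A2ml1, chr15:103899263-103899562 (minus) for Mucl2 and chr5:88317062-88317361 (plus) for Prol1. Capitals mark the SOX core motif, searched as ACAAAG or ACAATG on both strands, so that CTTTGT is the reverse of the first.
Dcpp1: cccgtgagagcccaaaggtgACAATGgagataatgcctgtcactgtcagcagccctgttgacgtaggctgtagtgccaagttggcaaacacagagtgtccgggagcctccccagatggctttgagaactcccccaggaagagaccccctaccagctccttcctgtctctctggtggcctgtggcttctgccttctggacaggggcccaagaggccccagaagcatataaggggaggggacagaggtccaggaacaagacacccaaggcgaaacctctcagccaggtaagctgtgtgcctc
Dcpp2: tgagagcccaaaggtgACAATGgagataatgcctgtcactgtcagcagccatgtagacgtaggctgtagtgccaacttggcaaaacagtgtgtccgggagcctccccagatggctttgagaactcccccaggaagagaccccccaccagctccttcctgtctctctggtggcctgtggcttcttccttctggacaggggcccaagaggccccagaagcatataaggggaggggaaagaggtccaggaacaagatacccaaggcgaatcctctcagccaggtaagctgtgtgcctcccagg
Dcpp3: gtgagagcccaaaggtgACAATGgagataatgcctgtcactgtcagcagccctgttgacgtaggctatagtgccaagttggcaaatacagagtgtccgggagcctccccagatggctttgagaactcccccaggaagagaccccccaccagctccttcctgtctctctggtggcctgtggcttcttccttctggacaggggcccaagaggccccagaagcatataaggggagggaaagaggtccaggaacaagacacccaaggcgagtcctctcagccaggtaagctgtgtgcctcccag
A2ml1: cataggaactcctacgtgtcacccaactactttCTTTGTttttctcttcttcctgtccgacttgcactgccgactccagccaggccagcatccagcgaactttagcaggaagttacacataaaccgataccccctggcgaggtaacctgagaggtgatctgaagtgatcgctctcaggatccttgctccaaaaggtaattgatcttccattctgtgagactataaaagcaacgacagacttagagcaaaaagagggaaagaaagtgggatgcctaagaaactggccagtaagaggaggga
Mucl2: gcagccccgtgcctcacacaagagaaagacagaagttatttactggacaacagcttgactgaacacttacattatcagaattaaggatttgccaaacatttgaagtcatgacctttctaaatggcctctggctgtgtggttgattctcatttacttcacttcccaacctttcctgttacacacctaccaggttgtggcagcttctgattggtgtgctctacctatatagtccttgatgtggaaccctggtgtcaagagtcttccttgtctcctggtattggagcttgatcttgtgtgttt
Prol1: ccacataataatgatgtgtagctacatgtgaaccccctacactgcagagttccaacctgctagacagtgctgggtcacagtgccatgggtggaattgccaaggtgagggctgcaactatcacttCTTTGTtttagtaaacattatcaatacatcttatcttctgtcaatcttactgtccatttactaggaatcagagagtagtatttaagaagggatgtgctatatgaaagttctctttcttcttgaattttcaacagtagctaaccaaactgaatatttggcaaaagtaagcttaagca

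The 3 Dcpp windows were near copies of each other, with 93.77% identical bases between Dcpp1 and Dcpp2, 95.07% between Dcpp1 and Dcpp3 and 96.36% between Dcpp2 and Dcpp3. Pairs that included A2ml1, Mucl2 or Prol1 were 46.6% to 49.1% identical over their alignments. Counted from the start, a SOX core stood at -230, -234 and -233 in Dcpp1, Dcpp2 and Dcpp3, at -217 in A2ml1 and at -126 in Prol1, and these letters were not in the Mucl2 window. Of 32851 mouse promoters of the same length, 28.6% held this motif. The CREB half-site TGACGT stood in Dcpp1 and Dcpp3 and in 7.513% of all promoters, and TATAAA stood at -30 in A2ml1 and in 13.62% of all. These matches describe letters in a window and say nothing of what binds there.

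Each library held between 57397998 and 71294185 gene counts in the 4 compared, and 71367044 and 68876821 in PG. A few secretory genes took unequal shares of them: the 10 most abundant genes held 49.6% and 47.0% of the counts in SLG replicates 1 and 2 against 78.7% and 80.2% in SMG. Levels are therefore given as CPM, the counts relative to a library size scaled by the trimmed-mean (TMM) method, which assumes that most genes are equal between glands, so scaled values of a library need not add up to a fixed total. The scaling factors were 1.471 and 1.644 in SLG, 0.793 and 0.743 in SMG. No Y-linked count was read in any tissue library. Pairs of values below are in the order of replicates 1 and 2, and fold changes are SLG over SMG. A gene was called when its log2 fold change was beyond 1 in size and its p from edgeR's quasi-likelihood test, after Benjamini-Hochberg adjustment, was under 0.05.

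SLG replicate 1 stood apart from SLG replicate 2 in products of another gland. Amy1, the salivary amylase, was at 6209 and 5.31 CPM in the SLG pair and at 110940.0 and 114803 CPM in PG, Smr3a, a proline-rich saliva protein, was at 8821 and 2.94 CPM, and the nuclease gene Dnase1 at 1507 and 0.529 CPM. In SMG these 3 genes were at 6.41 and 6.12, 0.139 and 0.258 and 3.65 and 4.71 CPM. The serous cargo list has 12 genes at 20 CPM or more in PG and under 1% of that in SMG. For 9 of them SLG replicate 1 held 3.46% to 5.89% of the PG level, a narrow range, while SLG replicate 2 held 0.00185% to 1.56%. The other 3, the amylase copies Amy2a3, Amy2a4 and Amy2a5, were between 20.6 and 23.8 CPM in PG and had no count in either SLG library. Bpifa2, the parotid secretory protein, was at 27269.6 and 5242 CPM in SLG, which is 5.83% and 1.12% of its PG level. Whether parotid tissue entered that library was not tested.

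Of 16914 genes tested, 1581 (9.35%) were called higher in SLG than in SMG and 1742 (10.3%) were called lower, 19.6% in all. Of all calls, 47.6% were on the SLG side. That share was 36.1% with upper-quartile factors, 31.6% with library totals taken without the most abundant genes, 95.9% with full library totals and at least 99.1% on TPM, the length-scaled values of the deposited table, so the split rests on the scaling. The median log2 fold change of all tested genes was 0.01, that of the genes called higher was 1.78 and that of the genes called lower was -1.64. The larger changes were mostly gains in SLG: 316 genes were called higher beyond a log2 fold change of 4, against 58 lower. Where the higher gland averaged 5 CPM or more, these numbers were 89 and 4. There were 201 genes called higher with no count in either SMG library, and 27 called lower with no count in either SLG library. The glands differed in effective depth, so these numbers are not on an equal footing. The count floor used for fold bounds stood for 0.0331 and 0.0256 CPM in SLG but 0.0596 and 0.0703 CPM in SMG. A gene at the same CPM was therefore more easily left without a count in SMG. Of the calls, 879 had a mean under 1 CPM in the higher gland, where a fold change rests on few counts. Without SLG replicate 1 the test called 1528 higher and 1608 lower, of which 1352 and 1335 were shared with the full comparison. Without SLG replicate 2 it called 1340 higher and 1052 lower.

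**Figure D1:**
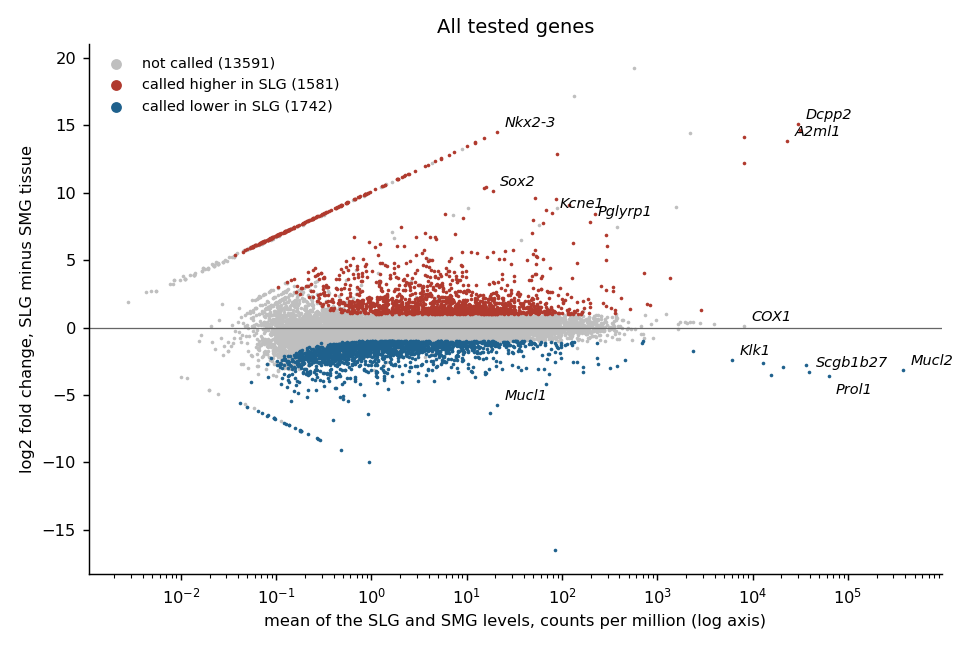
Log2 fold change (SLG minus SMG, vertical axis) of each of the 16914 tested genes against the mean of its SLG and SMG levels in CPM (horizontal log axis), with the 1581 genes called higher in red, the 1742 called lower in blue and the rest in grey. Gains reach further than losses, and the straight arms are genes with no count in one of the glands. The grey points at the top are genes such as Chia1, which was at 2255 and 1.25 CPM in SLG replicates 1 and 2.

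Of the 5 most abundant transcripts of SLG, the Dcpp genes and A2ml1 were nearly absent from SMG, whereas the leading secretory transcripts of SMG were all read in SLG at a lower level. Dcpp2 was at 61834 and 57972 CPM in SLG and at 1.41 and 1.99 CPM in SMG (log2 fold change 15.10, SE 0.24, adjusted p = 2.33e-10). Dcpp3 was at 65982 and 58819.8 CPM against 1.67 and 3.07 CPM (log2 fold change 14.69, SE 0.47, adjusted p = 5.32e-06). Dcpp1 was at 17432 and 14900.0 CPM against 0.993 and 0.75 CPM (log2 fold change 14.17, SE 0.24, adjusted p = 2.33e-10). The 3 genes lie side by side on chromosome 17, at chr17:23880669-23882853 for Dcpp1, chr17:23898722-23900788 for Dcpp2 and chr17:23917419-23919441 for Dcpp3, as the outer limits of all RefSeq transcripts, which can begin before the start used for a promoter. They encode lectin-like proteins of demilune and parotid serous cells, and PG held 17729.6 and 15401 CPM of Dcpp1 but 3412 and 3207 CPM of Dcpp2. Between 19.88% and 26.69% of the 100-base windows of each transcript were shared with another member, so the split of reads among the 3 genes is uncertain. A2ml1 was at 41211 and 50737 CPM in SLG and at 2.88 and 3.45 CPM in SMG (log2 fold change 13.83, SE 0.98, adjusted p = 0.00177), and the libraries of PG held 0.0829 and 0 CPM. The 2 SLG libraries lay together for these 4 genes, far above the SMG pair.

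Mucl2 was the most abundant transcript of either gland. It took 12.6% and 10.8% of the counts in SLG and 50.5% and 53.4% in SMG, or 85758 and 65932 CPM against 636971 and 718660.0 CPM (log2 fold change -3.16, SE 0.20, adjusted p = 1.84e-05). Per length, in TPM of the deposited table, Mucl2 was at 201120.0 and 185940.0 in SLG and 613422 and 636826 in SMG. Prol1, an apomucin of mouse saliva, was at 10662 and 8824 CPM in SLG and 116537 and 114036 CPM in SMG, or 11.8-fold lower in SLG (log2 fold change -3.56, SE 0.12, adjusted p = 1.63e-08). The groups did not overlap for either gene, as for 3321 of all 3323 called genes. COX1, a mitochondrial respiratory subunit among the 10 most abundant genes of both glands, was at 8355 and 8293 against 7855 and 7846 CPM and was not called (log2 fold change 0.08, adjusted p = 0.493). With library totals and on TPM, COX1 was called higher in SLG.

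**Figure D2:**
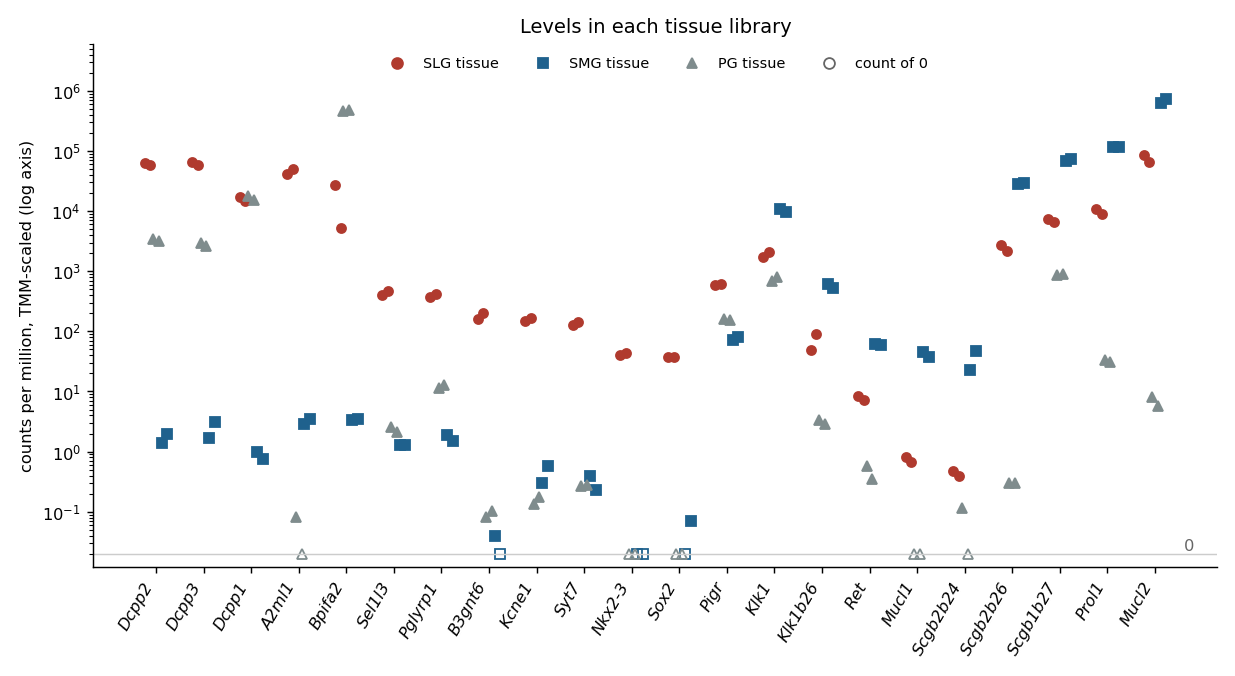
Levels of 22 genes in each tissue library, in TMM-scaled CPM on a log axis, with SLG tissue as red circles, SMG tissue as blue squares, PG tissue as grey triangles and a count of 0 as an open symbol on the bottom line. The Dcpp genes and A2ml1 lie between 14900.0 CPM (Dcpp1) and 65982 CPM (Dcpp3) in SLG and between 0.75 CPM (Dcpp1) and 3.45 CPM (A2ml1) in SMG, and Bpifa2 is the gene whose SLG libraries lie furthest apart.

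Among genes with at least 5 CPM in the higher gland, regulators and glycan enzymes stood beside the secretory products at the top of the SLG side. Nkx2-3, a homeobox factor that mice need for a mature sublingual gland, was at 40.0 and 43.2 CPM in SLG with no count in SMG or PG, at least 640.4-fold higher against a floor of 3 counts per SMG library (adjusted p = 1.63e-08). Ptgdr, a prostaglandin D2 receptor, was at 28.8 and 31.6 CPM with no count in SMG, at least 465-fold higher. Against the same floor, Mobp, named for a myelin protein, was at 24.9 and 24.5 CPM and at least 380.1-fold higher, and Fam3b, a secreted cytokine-like protein, was at 24.8 and 24.1 CPM and at least 376-fold higher. Hpse2, a relative of heparanase, was at 12.002 and 14.3 CPM and at least 202-fold higher. For these genes the SMG pair had no count at all, so the fold is a bound set by depth.

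The largest falls in SLG were secretory products and a few scattered genes. Scgb2b24, a beta subunit of androgen-binding protein, was at 0.475 and 0.393 CPM in SLG and 22.4 and 47.0 CPM in SMG, 80.0-fold lower (log2 fold change -6.33, SE 0.62, adjusted p = 0.00273). Mucl1, a small mucin-like gene, was at 0.817 and 0.674 CPM against 44.7 and 37.2 CPM, 55.0-fold lower (log2 fold change -5.79, SE 0.16, adjusted p = 1.40e-08). Esp4, an exocrine gland secreted peptide, was at 1.13 and 0.657 against 11.3 and 12.2 CPM (log2 fold change -3.73, adjusted p = 3.30e-06). Hp, the haemoglobin-binding haptoglobin, was at 2.01 and 1.61 against 23.3 and 22.1 CPM (log2 fold change -3.66, adjusted p = 3.70e-06), and Slc37a2, a sugar phosphate transporter, was at 15.7 and 9.29 against 131 and 138 CPM (log2 fold change -3.43, adjusted p = 7.85e-04). The naming rule took only genes whose SLG and SMG libraries did not overlap, so the agreement of replicates for these 5 genes was fixed by that choice. Ptn, the growth factor pleiotrophin, was at 0.475 and 0.614 against 7.94 and 8.91 CPM (log2 fold change -3.94, adjusted p = 0.0455), and Asgr2, an asialoglycoprotein receptor subunit, was at 0.519 and 0.222 against 5.00 and 6.49 CPM (log2 fold change -3.98, adjusted p = 0.0111). Ptn lost its call without any one of the 4 SLG and SMG libraries, at log2 fold changes that stayed negative, and Asgr2 lost it without SLG replicate 2 or either SMG replicate. Outside the naming rule and chosen after its values were seen, the pseudogene Scgb1b26-ps was at 207 and 129 CPM in SMG with no count in SLG, at least 5736-fold lower (adjusted p = 0.0292), and it lost its call without either SLG replicate and without a filter on low counts.

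In the list of mucins and mucous cargo, 7 of 18 tested members rose in SLG and 7 fell, beside 9.35% and 10.3% of all genes. The median log2 fold change was 0.78. Without SLG replicate 1, 7 were higher and 6 lower. Of 10 tested genes listed as mucus partners 7 rose and 1 fell. Dcpp1, Dcpp2, Dcpp3 and Bpifa2, products of demilune or parotid serous cells, were among the 7. The 10 genes summed to 177201 and 139278 CPM in SLG, 22216 and 21744 CPM in SMG and 502764 and 506940 CPM in PG. Of 7 tested secreted or membrane mucins other than the gel-forming ones, 5 fell and 2 were not called. Fcgbp, a large mucus protein that binds mucin, was at 17.6 and 25.5 CPM in SLG and 0.556 and 0.328 CPM in SMG (log2 fold change 5.58, SE 0.28, adjusted p = 7.36e-07). Gp2, a granule glycoprotein that binds bacteria, was at 2.59 and 3.01 CPM with no count in SMG, at least 43.2-fold higher. Muc13, a membrane mucin, fell from 7.35 and 7.92 CPM in SMG to 0.916 and 1.45 CPM in SLG (log2 fold change -2.68, SE 0.23, adjusted p = 9.34e-06). Smgc, a submandibular product that shares its locus with the gel-forming mucin Muc19, was at 1029 and 1159 CPM in SLG and 3663 and 3708 CPM in SMG (log2 fold change -1.75, SE 0.10, adjusted p = 1.92e-06). Muc19 itself was not analysed here. Smgc lost its call when counts were scaled by library totals, and in TPM it was at 518 and 701 in SLG and 758 and 705 in SMG.

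Most submandibular secretory products were lower in SLG but remained among its abundant transcripts. Of 19 tested members of that list, 12 fell and 4 rose, beside 10.3% and 9.35% of all genes. Their median log2 fold change was -2.67 beside 0.01 over all genes. Scgb1b27, the alpha subunit of salivary androgen-binding protein, was at 7401 and 6660.3 CPM in SLG and 68129.6 and 72987 CPM in SMG, 10.04-fold lower (log2 fold change -3.33, SE 0.11, adjusted p = 1.07e-08). Of 7 tested genes of androgen-binding protein and other secretoglobins 5 fell and 2 rose. The beta subunit Scgb2b27 was at 9783 and 8677 against 61894 and 64983 CPM (log2 fold change -2.78, SE 0.11, adjusted p = 3.55e-08), and Scgb2b26 at 2767 and 2147 against 28009 and 28764 CPM (log2 fold change -3.53, SE 0.14, adjusted p = 3.85e-08). Car6, the secreted carbonic anhydrase, was at 5818 and 3688 against 36738 and 36470.0 CPM (log2 fold change -2.95, adjusted p = 5.48e-06), and Pip, the prolactin-induced protein of saliva, at 4626 and 2282 against 22183 and 21704 CPM (log2 fold change -2.67, adjusted p = 0.00419). Both were higher in SLG replicate 1 than in SLG replicate 2, and both are parotid products too, with 19985 and 19098 CPM of Car6 and 13790.2 and 15476 CPM of Pip in PG. Bpifa2 was called higher in SLG (log2 fold change 12.21, SE 1.43, adjusted p = 0.00869) against 3.36 and 3.49 CPM in SMG, with a log2 fold change of 10.60 without SLG replicate 1, but it lost the call without either SMG replicate.

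All 14 glandular kallikreins of the Klk1 family fell in SLG, by log2 fold changes between -3.33 and -2.31, and their calls held without SLG replicate 1. Klk1, the tissue kallikrein, was at 1722 and 2087 CPM in SLG and 10857 and 9798 CPM in SMG (log2 fold change -2.44, SE 0.14, adjusted p = 4.83e-07). Klk1b26, a kallikrein first known as a prorenin-converting enzyme, was at 48.6 and 89.7 against 606 and 532 CPM (log2 fold change -3.04, SE 0.35, adjusted p = 0.00337). At the far end Klk1b8 was at 1.17 and 1.73 against 15.4 and 13.9 CPM (log2 fold change -3.33, adjusted p = 5.04e-07), and at the near end Klk1b21 was at 17.8 and 28.6 against 119.7 and 110.1 CPM (log2 fold change -2.31, adjusted p = 0.00149). The family lies in 1 cluster on chromosome 7, and at most 5.81% of the 100-base windows of a transcript were shared with another member. Of other products of granular ducts, Crisp3, a cysteine-rich secretory protein, was at 73.2 and 87.3 against 389.7 and 382 CPM (log2 fold change -2.26, SE 0.12, adjusted p = 3.93e-07). Egf, the epidermal growth factor, was at 104 and 128 CPM in SLG and 118 and 109 CPM in SMG and was not called (log2 fold change 0.03, adjusted p = 0.799). With library totals and on TPM, Egf was called higher in SLG. In all, 17 of 19 tested members of the list of kallikreins and granular duct products fell, with a median of -2.93, and 16 fell without SLG replicate 1. Over all genes 10.3% were called lower. With library totals 17 members of the list were lower and 1 higher. On the 3 TPM settings 10 or 11 were lower, and Klk1, Klk1b21, Klk1b27 and Crisp3 were among those that lost their calls.

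The share of the SMG level that remained in SLG ranged more widely over all these products than over the kallikreins. For the 14 kallikreins it was 7.97% to 17.7% in SLG replicate 1 and 11.8% to 24.9% in SLG replicate 2. Over 22 submandibular cargo genes, most of them kallikreins again, the median was 10.5% and 14.2%. The 14 kallikreins alone had medians of 11.2% and 15.7%. Klk1b27, Car6 and Pip were not among the 22. Mucl2, Prol1 and Scgb1b27 stood at 12.7%, 9.25% and 10.5% in replicate 1 and at 9.73%, 7.65% and 9.44% in replicate 2. At the high end Smgc stood at 27.9% and 31.4% and Crisp3 at 19.0% and 22.6% in replicates 1 and 2. At the low end Mucl1 and Scgb2b24 stood at 1.99% and 1.37% in replicate 1 and 1.64% and 1.13% in replicate 2. Scgb1b26-ps, at 0 counts in SLG against 207 and 129 CPM in SMG, was lower still. The glands lie side by side in a common capsule, and whether SMG tissue was carried into the SLG libraries was not tested.

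**Figure D3:**
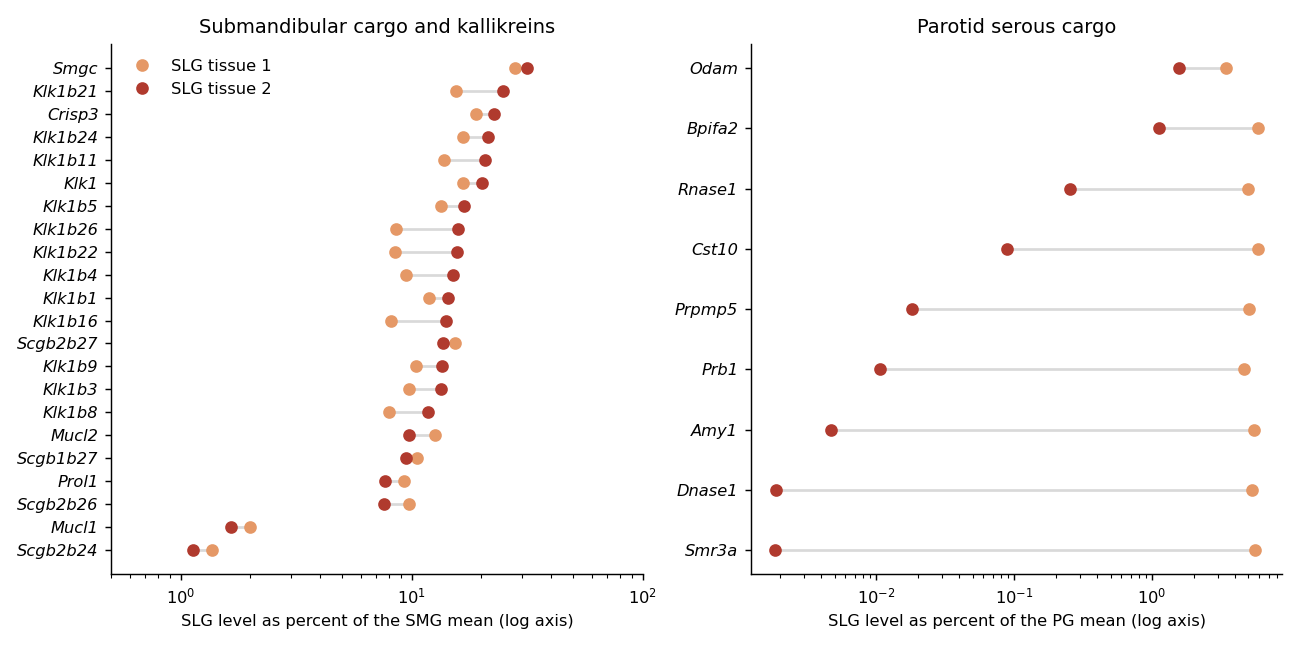
Left, level of 22 submandibular cargo and kallikrein genes in SLG replicate 1 (orange) and replicate 2 (dark red) as a percent of the SMG mean, and right, level of the 9 parotid serous genes read in SLG as a percent of the PG mean, all on log axes. Submandibular genes sit between 1.13% and 31.4%. Among them the kallikreins are higher in replicate 2, such as Klk1b26 at 8.54% and 15.8%, whereas Mucl2, Prol1 and the Scgb genes are lower there. Parotid genes sit between 3.46% and 5.89% in replicate 1 and between 0.00185% and 1.56% in replicate 2.

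Counts over the serous cargo list changed with the SLG library left out. Over all genes 9.35% were called higher and 10.3% lower in the full comparison. Of 22 tested members 3 rose and 3 fell, but without SLG replicate 1 the test called 7 higher and 5 lower, and without SLG replicate 2 it called 12 higher and 3 lower. Amy1 (log2 fold change 8.95, adjusted p = 0.163), Smr3a (log2 fold change 14.44, adjusted p = 0.114) and Dnase1 (log2 fold change 7.49, adjusted p = 0.222) were not called, with SLG replicates far apart. Without SLG replicate 1 the log2 fold change of Dnase1 became -2.95 and that of Smr3a was 3.93, both then called. Lipase genes known from the pancreas were even across the SLG pair. Pnliprp1 was at 8.65 and 7.03 CPM and Pnlip at 1.70 and 1.997 CPM in SLG with no count in SMG or PG, at least 121-fold and 28.5-fold higher.

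Of 21 tested genes of mucosal defence 6 were called higher in SLG and 2 lower, beside 9.35% and 10.3% of all genes. Their median log2 fold change was 0.17. Pglyrp1, a peptidoglycan-binding protein that acts on bacteria, was at 368 and 419 CPM in SLG and 1.91 and 1.5003 CPM in SMG, 231-fold higher (log2 fold change 7.84, SE 0.14, adjusted p = 2.33e-10). Wfdc18, a small protein with a WAP domain, was at 1313 and 1428 against 77.0 and 85.6 CPM (log2 fold change 4.08, SE 0.11, adjusted p = 2.47e-09), and its relative Wfdc12 at 4313 and 3760.5 against 1641 and 1657 CPM (log2 fold change 1.29, adjusted p = 1.28e-05). Pigr, the receptor that carries polymeric IgA into saliva, was at 597 and 619 against 71.7 and 81.6 CPM, 7.93-fold higher (log2 fold change 2.99, SE 0.10, adjusted p = 1.04e-08). Ccl28, a chemokine that draws IgA plasma cells to mucosal glands, was at 477 and 474 against 177 and 179 CPM (log2 fold change 1.42, adjusted p = 4.64e-07). Each of these genes was at nearly the same level in the 2 SLG libraries. Ltf, the iron-binding lactoferrin, was at 5.07 and 6.41 CPM with no count in SMG, at least 88.3-fold higher. Lpo, lactoperoxidase, fell to 196 and 102 CPM from 799 and 752 CPM (log2 fold change -2.38, adjusted p = 0.00467), and Lyz2, a lysozyme that macrophages express too, to 11.5 and 9.46 CPM from 22.9 and 24.1 CPM (log2 fold change -1.16, adjusted p = 2.83e-05). Under scaling by library totals 8 members were higher and 1 lower.

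Many enzymes of O-glycan synthesis rose, most often those of initiation and of core and extension, while a few fell. Of 61 tested members 25 rose and 6 fell, beside 9.35% and 10.3% of all genes. Their median log2 fold change was 0.95 beside 0.01 over all genes. Most of the falls were not called when SLG replicate 2 or either SMG replicate was left out. With library totals 38 members were higher and 1 lower. By step, 7 of 14 initiating GalNAc transferases, 9 of 18 core and extension enzymes, 7 of 21 enzymes of sialic acid and fucose caps, and 2 of 8 enzymes of sulfation were higher. Falls numbered 1, 1, 3 and 1 in the same order.

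Of the enzymes that put the first GalNAc on a mucin, Galnt12 was at 92.1 and 101 CPM in SLG and 2.24 and 2.11 CPM in SMG, 44.3-fold higher (log2 fold change 5.47, SE 0.11, adjusted p = 5.44e-10). Galnt4 was at 95.4 and 109 against 4.37 and 3.49 CPM, 25.9-fold higher (log2 fold change 4.69, SE 0.12, adjusted p = 1.79e-09), and Galnt5 at 44.5 and 50.9 against 1.49 and 1.34 CPM, 33.8-fold higher (log2 fold change 5.07, SE 0.18, adjusted p = 1.99e-08). Galnt6 was 49.98-fold higher from a low SMG level of 0.397 and 0.305 CPM. The broadly expressed Galnt2 and Galnt7 rose less, to 53.7 and 61.3 CPM from 10.4 and 9.61 CPM (log2 fold change 2.52, adjusted p = 2.79e-08) and to 249 and 278 CPM from 68.8 and 66.8 CPM (log2 fold change 1.96, adjusted p = 6.03e-08).

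Of the next steps, B3gnt6, which makes the core 3 structure, was at 159 and 198 CPM in SLG, with 2 counts in 1 SMG library and 0 in the other. The ratio of its counts per scaled library was 8425 (95% exact interval 2332 to 69567) and the adjusted p = 7.90e-10. A4gnt, which puts an alpha-linked GlcNAc on the mucins of gastric glands, was at 19.1 and 21.0 CPM with no count in SMG or PG, at least 309-fold higher. B4galnt2, which adds a terminal GalNAc, was at 17.3 and 12.2 CPM with no count in SMG, at least 228-fold higher, and was higher again in PG at 55.9 and 56.7 CPM. B3galt5, a galactosyltransferase of type 1 chains, was at 79.8 and 94.2 against 8.02 and 7.34 CPM (log2 fold change 3.50, SE 0.11, adjusted p = 1.07e-08).

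Caps and sulfate changed in both directions. Fut4, a fucosyltransferase, was at 6.76 and 6.59 CPM in SLG and 0.338 and 0.188 CPM in SMG (log2 fold change 4.63, adjusted p = 6.81e-07). The sialyltransferase St3gal3 was at 9.79 and 10.1 against 0.755 and 0.633 CPM (log2 fold change 3.83, adjusted p = 2.00e-07), and St8sia6, which adds a second sialic acid, was at 5.10 and 4.77 against 0.318 and 0.445 CPM (log2 fold change 3.70, adjusted p = 2.83e-06). St6galnac1, which caps the first GalNAc with sialic acid, went the other way, at 0.64 and 0.452 CPM in SLG and 5.50 and 5.86 CPM in SMG (log2 fold change -3.39, adjusted p = 5.36e-05). Chst9, a GalNAc sulfotransferase, was at 47.5 and 44.4 against 10.1 and 7.01 CPM (log2 fold change 2.41, adjusted p = 0.00402), and Papss2, which makes the sulfate donor, was at 6.78 and 8.45 against 0.417 and 0.258 CPM (log2 fold change 4.47, adjusted p = 1.01e-06). Both libraries of a gland lay on the same side for each of these genes, as for 3321 of all 3323 called genes.

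**Figure D4:**
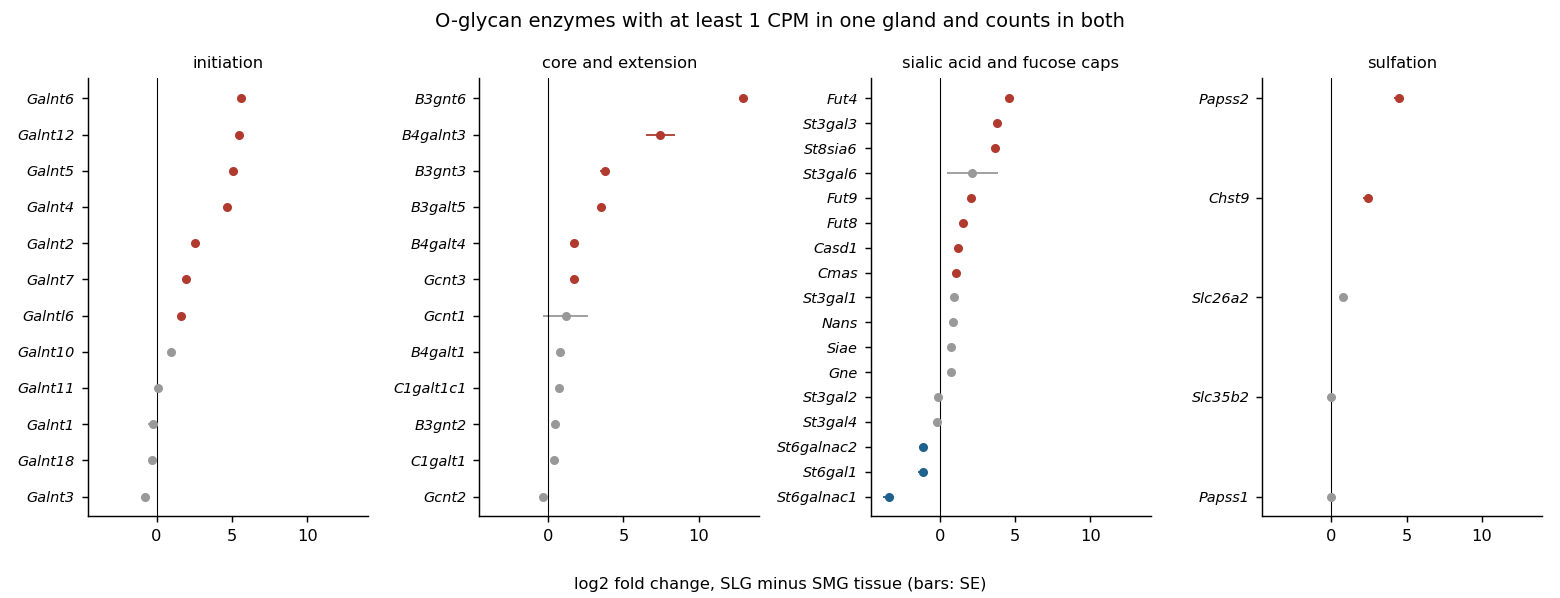
Log2 fold change (SLG minus SMG) with its standard error for the 46 tested O-glycan enzymes with at least 1 CPM in a gland and counts in both, by step, with genes called higher in red, called lower in blue and not called in grey. Most called enzymes of initiation and of core and extension lie on the SLG side, and the 3 sialyltransferases St6galnac1, St6gal1 and St6galnac2 lie on the SMG side.

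Transcription factors of glands and lineages divided, with 15 of 72 tested higher and 11 lower in SLG, beside 9.35% and 10.3% of all genes. Their median was 0.10, and with library totals 38 were higher and 2 lower. Beside Nkx2-3, the SOX factor Sox2, a regulator of salivary progenitors and acini, was at 37.7 and 37.8 CPM in SLG with 0 counts in 1 SMG library and 3 in the other. Its ratio of scaled counts was 1170.1 (95% exact interval 400.2 to 5675), with an adjusted p = 2.47e-08. Factors that serve secretory cells were abundant in SLG and higher there. Creb3l1, a membrane-bound factor of the secretory pathway, was at 638 and 714 against 150.2 and 139 CPM (log2 fold change 2.23, SE 0.09, adjusted p = 7.71e-08), and its relative Creb3l4 at 104 and 118 against 9.45 and 7.97 CPM, 12.7-fold higher (log2 fold change 3.67, SE 0.11, adjusted p = 4.92e-09). Spdef, the ETS factor of goblet and other mucous cells, was at 226 and 224 against 62.1 and 57.4 CPM (log2 fold change 1.91, SE 0.07, adjusted p = 3.01e-08). Foxp2 was at 8.55 and 10.2 CPM from 0.0794 and 0.117 CPM (log2 fold change 6.57, adjusted p = 2.68e-07), and Foxa2 at 1.88 and 1.95 CPM with no count in SMG, at least 29.4-fold higher. The Notch target Hey1 was at 11.7 and 10.97 against 0.854 and 0.563 CPM (log2 fold change 3.98, adjusted p = 2.39e-07), the homeobox gene Irx3 at 15.7 and 16.5 against 2.18 and 2.79 CPM (log2 fold change 2.70, adjusted p = 3.42e-07), and Klf5 at 12.8 and 18.4 against 2.50 and 2.65 CPM (log2 fold change 2.60, adjusted p = 3.81e-06). Ehf, an epithelial ETS factor, stood close to the threshold at 487 and 487 against 228 and 232 CPM (log2 fold change 1.09, adjusted p = 2.83e-06) and lost its call under 3 of the other scalings.

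By role, 8 of 21 tested acinar and secretory factors were higher and 4 lower, and 3 of 17 duct, basal and ionocyte factors were higher and 3 lower. These counts stand beside 9.35% and 10.3% of all genes. Of the factors lower in SLG, Ascl3, a marker of duct ionocytes, was at 4.30 and 4.93 against 14.5 and 17.5 CPM (log2 fold change -1.79, adjusted p = 3.23e-06), and Foxi1, which marks ionocytes too, at 2.41 and 2.47 against 7.39 and 7.06 CPM (log2 fold change -1.56, adjusted p = 2.73e-05). Sox10, an acinar and glial factor, was at 29.2 and 21.7 against 72.0 and 73.0 CPM (log2 fold change -1.51, adjusted p = 1.29e-05). Bhlha15, the acinar factor Mist1, was at 149.6 and 140.3 against 319.7 and 313 CPM (log2 fold change -1.13, adjusted p = 3.05e-06), and Elf5 at 41.4 and 35.5 against 90.1 and 98.5 CPM (log2 fold change -1.30, adjusted p = 1.76e-06). The falls of Ascl3, Foxi1, Sox10, Bhlha15 and Elf5 lost their calls when counts were scaled by library totals, and the log2 fold changes of Bhlha15 and Elf5 turned positive on TPM.

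Genes of granule exocytosis and protein folding changed singly rather than as a list. Of 49 tested members of the secretory pathway 7 were higher and 3 lower, beside 9.35% and 10.3% of all genes, with a median of -0.09. With library totals 18 were higher and 1 lower. Syt7, a calcium sensor of regulated exocytosis, was at 127 and 144 CPM in SLG and 0.397 and 0.234 CPM in SMG, 428-fold higher (log2 fold change 8.71, SE 0.15, adjusted p = 2.45e-10), and PG held 0.265 and 0.28 CPM. Cpe, a carboxypeptidase of secretory granules, was at 108 and 122 against 8.56 and 7.74 CPM, 14.1-fold higher (log2 fold change 3.82, SE 0.09, adjusted p = 1.90e-09). Pdia5, a disulfide isomerase, was at 34.1 and 36.5 against 3.46 and 3.54 CPM (log2 fold change 3.34, adjusted p = 1.07e-08). On the other side were Derl3, of protein export from the endoplasmic reticulum, at 28.5 and 21.1 against 144 and 143 CPM (log2 fold change -2.53, adjusted p = 9.95e-07), the secretory Rab26 at 2.94 and 2.59 against 10.4 and 9.82 CPM (log2 fold change -1.88, adjusted p = 1.91e-06), and the oxidase gene Ero1lb at 31.0 and 26.8 against 117 and 111 CPM (log2 fold change -1.98, adjusted p = 1.03e-07).

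Ion transport genes were listed by acinar and duct role. Of 20 tested genes of acinar ion and water transport 3 rose and 3 fell, beside 9.35% and 10.3% of all genes, and with library totals 10 were higher and 1 lower. Kcne1, a subunit that joins the potassium channel Kcnq1, was at 148 and 165 CPM in SLG and 0.298 and 0.586 CPM in SMG, 355-fold higher (log2 fold change 8.50, SE 0.17, adjusted p = 4.13e-10), and PG held 0.133 and 0.175 CPM. The bicarbonate carriers Slc4a4 and Slc26a6 rose as well, the only ones among 11 tested chloride, bicarbonate and water genes, with Slc4a4 at 7.10 and 6.75 against 0.814 and 0.774 CPM (log2 fold change 3.12, adjusted p = 1.23e-06) and Slc26a6, an anion exchanger, at 47.6 and 55.98 against 11.995 and 10.3 CPM (log2 fold change 2.21, adjusted p = 5.68e-07). Car8, a carbonic anhydrase-related protein, was at 1.48 and 2.02 against 10.2 and 10.5 CPM (log2 fold change -2.55, adjusted p = 5.07e-06), and Kcnma1, the large-conductance potassium channel, at 29.6 and 26.6 against 65.3 and 61.8 CPM (log2 fold change -1.18, adjusted p = 4.87e-06).

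Of 30 tested genes of duct ion transport 14 fell and 2 rose, beside 10.3% and 9.35% of all genes, with a median of -1.02. But the direction depended on the scaling: with library totals, which moved the median of all genes by 1.02, 8 were called higher and 1 lower. Slc9a3, a sodium-proton exchanger, was at 1.41 and 1.77 CPM in SLG and 9.12 and 9.73 CPM in SMG (log2 fold change -2.56, SE 0.16, adjusted p = 9.84e-07). The sodium channel subunit Scnn1b was at 4.68 and 5.50 against 14.99 and 13.7 CPM (log2 fold change -1.49, adjusted p = 6.02e-06), and Scnn1g at 1.24 and 1.30 against 3.46 and 4.01 CPM (log2 fold change -1.56, adjusted p = 3.59e-04). Bsnd, the partner of duct chloride channels, was at 2.16 and 2.70 against 8.18 and 7.83 CPM (log2 fold change -1.71, adjusted p = 1.21e-05), and Fxyd2, a sodium pump subunit, at 59.999 and 63.6 against 151 and 151 CPM (log2 fold change -1.29, adjusted p = 4.02e-07). Scnn1b, Scnn1g, Bsnd and Fxyd2 lost their calls with library totals, and Fxyd2 turned positive on TPM. On the other side stood activators of the sodium channel, the kinase Sgk1 at 52.6 and 47.3 against 23.9 and 24.6 CPM (log2 fold change 1.04, adjusted p = 7.30e-06) and the protease Prss8 at 115 and 129.6 against 58.3 and 58.8 CPM (log2 fold change 1.06, adjusted p = 4.27e-06). Sgk1 lost its call without SLG replicate 1, at a log2 fold change of 0.98, and Prss8 lost it without SLG replicate 2. Both lost it with upper-quartile factors, with totals without the most abundant genes and with housekeeping scaling, so no duct gene was called higher under these 3. In bulk tissue, fewer duct cells and less RNA per duct cell cannot be told apart, here and in each list of cell type genes.

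**Figure D5:**
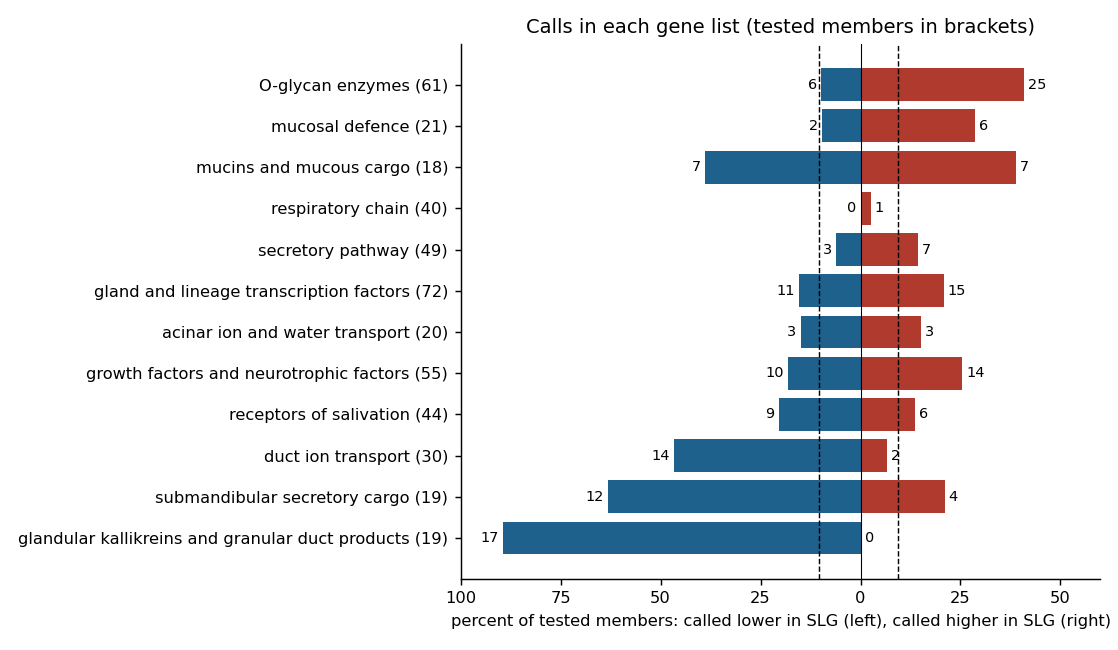
Percent of the tested members of 12 gene lists called lower (blue, to the left) and higher (red, to the right) in SLG than in SMG, with the number called at each bar, the number tested in brackets and, as dashed lines, the 10.3% and 9.35% called over all genes. O-glycan enzymes extend furthest to the right with 25 of 61, and kallikreins and granular duct products furthest to the left with 17 of 19.

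Receptors of vasoactive intestinal peptide were higher in SLG, and most called adrenergic receptors were lower. Of 44 tested genes of receptors and their downstream machinery 6 rose and 9 fell, beside 9.35% and 10.3% of all genes. Their median was -0.01, and 12 of the 15 calls were receptors. Vipr1, a receptor of vasoactive intestinal peptide, was at 46.3 and 49.4 CPM in SLG and 4.96 and 5.79 CPM in SMG, 8.89-fold higher (log2 fold change 3.16, SE 0.10, adjusted p = 1.04e-08), and its relative Vipr2 was at 1.44 and 1.90 against 0 and 0.188 CPM (log2 fold change 4.22, adjusted p = 0.00108). Chrm1, a muscarinic receptor, was at 9.84 and 13.1 against 2.52 and 1.97 CPM (log2 fold change 2.34, adjusted p = 1.16e-05), while Chrm3, the main muscarinic receptor of acini, was at 19.2 and 21.8 against 16.7 and 15.5 CPM and was not called (log2 fold change 0.35, adjusted p = 0.0133). Chrm3 was called higher in SLG with library totals and on TPM. Of 6 adrenergic receptors called, 5 were lower and Adrb3 was higher. Adrb1, a beta receptor, was at 6.95 and 6.06 against 31.8 and 29.9 CPM, 4.75-fold lower (log2 fold change -2.25, SE 0.09, adjusted p = 5.99e-08), and Adra1a, an alpha receptor, at 1.56 and 1.84 against 9.14 and 9.94 CPM (log2 fold change -2.48, adjusted p = 1.45e-06). Npy1r, a receptor of neuropeptide Y, was at 0.188 and 0.196 against 1.07 and 0.633 CPM (log2 fold change -2.15, adjusted p = 0.00467) and lost its call without SMG replicate 1. With library totals 22 genes of the list were higher and 5 lower.

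Growth factors and neurotrophic factors moved in both directions, with 14 of 55 tested higher and 10 lower, beside 9.35% and 10.3% of all genes. Their median was -0.24. Ret, the receptor of the GDNF family, was at 8.33 and 7.29 CPM in SLG and 61.7 and 60.2 CPM in SMG, 7.81-fold lower (log2 fold change -2.97, SE 0.11, adjusted p = 3.06e-08). Erbb4, a receptor of neuregulins, was at 1.02 and 0.794 against 6.18 and 5.44 CPM (log2 fold change -2.69, adjusted p = 7.64e-05), while its ligand Nrg1 was higher at 3.53 and 4.01 against 0.357 and 0.727 CPM (log2 fold change 2.82, adjusted p = 5.31e-05). Ntrk2, the receptor of brain-derived neurotrophic factor, was at 14.9 and 14.1 against 1.27 and 1.55 CPM, 10.3-fold higher (log2 fold change 3.37, SE 0.13, adjusted p = 3.22e-08). Inhbb, an activin subunit, was at 12.2 and 14.5 against 2.54 and 2.81 CPM (log2 fold change 2.32, adjusted p = 1.09e-06), Sfrp1, a secreted WNT antagonist, at 20.5 and 21.6 against 3.71 and 3.82 CPM (log2 fold change 2.48, adjusted p = 4.23e-07), and Fgf1 at 41.1 and 42.5 against 14.97 and 13.9 CPM (log2 fold change 1.53, adjusted p = 3.70e-07). With library totals 24 genes of this list were higher and 3 lower.

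The genes that the study itself names by gland come mostly from the organoids of this series, and their tissue values are given as a description. The SLG genes Sox2, Dcpp3 and Wnt5b were higher in SLG, the last at 4.32 and 5.197 against 1.71 and 0.797 CPM (log2 fold change 1.91, adjusted p = 0.00157). Of 6 SMG genes, Klk1, Klk1b11 and Klk1b27 fell, with Klk1b11 at 33.5 and 50.1 against 259 and 226 CPM (log2 fold change -2.54, adjusted p = 2.02e-04) and Klk1b27 at 2.20 and 2.49 against 12.6 and 12.3 CPM (log2 fold change -2.40, adjusted p = 5.12e-07). Sema3b was at 1.62 and 2.45 against 1.71 and 2.11 CPM, Sema3c at 14.0 and 15.4 against 18.4 and 16.4 CPM and Itga8 at 4.07 and 4.10 against 5.22 and 5.09 CPM, and none of these 3 was called (adjusted p = 0.789, 0.0782 and 0.124).

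Markers of other cell types were read in both glands and moved with the comparison. Their counts stand beside 9.35% of all genes called higher and 10.3% called lower. The 8 fibroblast markers summed to 83.9 and 71.3 CPM in SLG and 215 and 237 CPM in SMG, and 6 of the 8 were lower, such as the collagen gene Col3a1 at 13.1 and 12.7 against 41.8 and 51.0 CPM (log2 fold change -1.85, adjusted p = 4.02e-07) and Dcn, decorin, at 42.1 and 34.3 against 113 and 117 CPM (log2 fold change -1.59, adjusted p = 7.67e-07). The 8 macrophage markers summed to 38.9 and 36.6 CPM in SLG and 73.7 and 79.0 CPM in SMG, with 4 lower. No fibroblast and no macrophage marker kept its call with library totals. Myoepithelial markers summed to 389 and 421 CPM in SLG and 236 and 225 CPM in SMG, and 3 of 8 were higher: Cnn1, a contractile protein, at 40.7 and 44.1 against 17.0 and 17.4 CPM (log2 fold change 1.30, adjusted p = 2.87e-06), Actg2 at 4.17 and 5.60 against 1.33 and 0.82 CPM (log2 fold change 2.17, adjusted p = 1.16e-04) and Myh11 at 99.3 and 111 against 52.5 and 49.3 CPM (log2 fold change 1.05, adjusted p = 4.09e-06). Myh11 lost its call without SLG replicate 2, with upper-quartile factors, with totals without the most abundant genes and with housekeeping scaling. Acta2, the best-known marker of these cells, was at 130.1 and 148 against 74.0 and 69.8 CPM, just under the fold threshold (log2 fold change 0.95, adjusted p = 1.06e-05), and was called without SLG replicate 1, at a log2 fold change of 1.05. Their part in the gene lists above was not tested.

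Of 8 markers of endothelium and pericytes 1 was higher and 3, Rgs5, Emcn and Pdgfrb, were lower, beside 9.35% and 10.3% of all genes. Their median log2 fold change was -0.63. Vwf, the von Willebrand factor, was at 105 and 104 CPM in SLG and 2.72 and 2.67 CPM in SMG, 38.8-fold higher (log2 fold change 5.28, SE 0.10, adjusted p = 2.46e-10), whereas Pecam1 was at 5.19 and 3.96 against 7.65 and 6.96 CPM (log2 fold change -0.68, adjusted p = 0.00311) and Cdh5 at 2.82 and 1.52 against 2.60 and 2.46 CPM (log2 fold change -0.23, adjusted p = 0.525), neither of them called. Of 6 tested plasma cell markers 3 rose from levels under 1 CPM, and Derl3, described above, fell. They were Igha, the IgA heavy chain, at 0.795 and 1.01 against 0.0993 and 0.305 CPM (log2 fold change 2.18, adjusted p = 0.00655), Jchain at 0.265 and 0.393 against 0.0794 and 0 CPM (log2 fold change 2.92, adjusted p = 0.0297) and Mzb1 at 0.364 and 0.299 CPM with no count in SMG, at least 5.10-fold higher. Igha lost its call without SLG replicate 2 or SMG replicate 1, and Jchain without SLG replicate 1, SLG replicate 2 or SMG replicate 2, and with the replicate block. Cdh1, the epithelial cadherin, was at 148 and 172 against 67.2 and 64.9 CPM (log2 fold change 1.28, adjusted p = 1.31e-06), the 1 called of 6 epithelial markers. In the keratin list 2 of 23 rose and 3 fell, beside 9.35% and 10.3% of all genes. The basal keratin Krt15 was at 0.199 and 0.171 against 2.22 and 2.79 CPM (log2 fold change -3.75, adjusted p = 1.17e-05). Krt4 was at 1.16 and 1.54 CPM with no count in SMG, at least 20.7-fold higher. Of 12 cell cycle genes edgeR and DESeq2 each called 0, as did an unadjusted p, and 1 of 40 respiratory chain genes was called. Of 14 housekeeping genes 1 was called, with summed levels of 2279.6 and 2448 CPM in SLG and 2339 and 2281 CPM in SMG. These low counts rest on the scaling. With library totals 9 housekeeping, 16 respiratory chain and 2 cell cycle genes were called higher in SLG. On TPM 12 or 13 housekeeping and 35 or 36 respiratory chain genes were.

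Organoids grown from the 2 glands and kept in the differentiation-accelerating medium (DAM), with 2 libraries per gland, gave a comparison of SLG with SMG in other libraries. All 8 organoid libraries entered that model. Of the 1581 genes higher in SLG tissue, 1402 were tested in the organoids. Of these, 350 were higher in SLG organoids too, which is 24.96% of the tissue genes tested and 17.3% of the 2025 organoid calls, and 84 (5.99%) were lower. Over all genes tested in organoids, 11.5% were called higher and 6.92% lower. Of the 1742 genes lower in SLG tissue, 1315 were tested, 144 were lower in SLG organoids too (10.95% of the tissue genes and 11.8% of the 1218 organoid calls), and 287 (21.8%) were higher.

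Several leading genes of SLG tissue were higher in SLG organoids as well. A2ml1 was at 878 and 941 CPM in SLG organoids and 72.1 and 89.7 CPM in SMG organoids (log2 fold change 3.49, SE 0.12, adjusted p = 3.17e-08). B3gnt6 was at 17.7 and 17.1 against 1.67 and 2.28 CPM (log2 fold change 3.13, adjusted p = 3.73e-05), A4gnt at 0.76 and 0.738 CPM with no count in SMG organoids (adjusted p = 0.0015), and Creb3l4 at 18.1 and 17.2 against 1.37 and 1.27 CPM (log2 fold change 3.73, adjusted p = 1.74e-07). Kcne1 was at 108 and 107 against 1.06 and 1.15 CPM (log2 fold change 6.61, adjusted p = 4.44e-07), and Syt7 at 1.45 and 1.40 against 0 and 0.252 CPM (log2 fold change 3.48, adjusted p = 0.014). Dcpp2 was at 263 and 246 against 82.5 and 113 CPM (log2 fold change 1.38, adjusted p = 0.0252). The regulators Nkx2-3 and Sox2, which SMG tissue barely held, were read in the organoids of both glands. Nkx2-3 was at 87.6 and 82.8 CPM in SLG organoids against 61.7 and 60.9 CPM in SMG organoids (log2 fold change 0.48, adjusted p = 0.00211), and Sox2 at 93.8 and 87.0 against 52.9 and 51.8 CPM (log2 fold change 0.79, adjusted p = 1.15e-05). Both differences lay under the fold threshold. Klk1, lower in SLG tissue, was at 14.2 and 13.5 against 8.89 and 17.5 CPM in the organoids and was not called (adjusted p = 0.876), while Klk1b26 was at 3.65 and 3.32 against 20.4 and 22.0 CPM and was lower (log2 fold change -2.60, adjusted p = 1.32e-06). Of the 14 kallikreins tested in the organoids, Klk1b26 was the 1 called lower, and 0 were called higher.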

How the data were processed

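Reads of 14 libraries in 7 groups of 2 were counted per gene by the authors. HISAT2, StringTie and DESeq2 appear in the submitters' notes, with build GRCm38. The deposited tissue and organoid tables hold raw read counts and, beside them, TPM values that the authors computed per gene. Another 22 value columns, FPKM of both tables and TPM of the organoids, were not used. The labels name a stranded total RNA kit and the study's methods a stranded mRNA kit, and none of the sources used here states whether counting used strand. Reads of overlapping genes may therefore be shared.

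Counts as deposited were tested in R 4.3.3 with edgeR 4.0.16 (TMM scaling, filterByExpr, robust quasi-likelihood fit) over all 6 tissue libraries, so that 16914 of 45777 genes were tested (16232 when the model held only the 4 libraries compared). Organoid counts were fitted alike over 8 libraries. Calls needed a log2 fold change beyond 1 and, after Benjamini-Hochberg adjustment, p under 0.05. Folds against a group without counts were bounded by 3 counts per library, and ratios over 1 to 3 counts have exact 95% intervals, which cover counting error only. Alternatives used DESeq2 1.42.0, limma 3.58.1 on log2(TPM + 1) and log2(TPM + 0.1), other scalings and filters, a replicate block and each library left out. Only the edgeR test of the 6 tissue libraries was tried on simulated counts. Promoters and transcript windows were read with python 3.11.15, and figures drawn with matplotlib 3.10.9.

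Named genes are those the study names by gland, the 12 largest changes in each direction at 5 CPM or more, the 10 most abundant genes of each gland, and up to 6 members of each list by adjusted p, with further members by role. The largest changes were taken among called genes whose SLG and SMG libraries did not overlap. Symbols of predicted models, clones and pseudogenes were left out of them. Some genes under this rule are counted in their lists but are not reported singly. The members and the gene lists were chosen with earlier results of these data known.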

Additional observations from a re-analysis of the deposited data

Results flagged for a closer look

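Of 1315 genes lower in SLG tissue and tested in organoids, 287 were called higher in SLG organoids and 144 lower. As examples, 5 genes are given for which both SLG tissue libraries lay below both SMG tissue libraries. Their SLG organoid libraries both lay above both SMG organoid libraries. These 5 genes were picked out after their values were seen, and the difference between tissue and organoids was not tested. Scgb1b27, at a log2 fold change of -3.33 in tissue, was at 3.96 and 4.70 CPM in SLG organoids and 0.547 and 0.377 CPM in SMG organoids (log2 fold change 3.22), and Scgb2b27, at -2.78 in tissue, had an organoid log2 fold change of 4.18. The ionocyte genes Ascl3 and Foxi1, at -1.79 and -1.56 in tissue, were at 5.69 and 6.26 in the organoids, on 19.3 and 16.5 against 0.422 and 0.267 CPM of Ascl3 and 24.7 and 23.6 against 0.203 and 0.425 CPM of Foxi1. Ret, at -2.97 in tissue, was at 1.94 and 1.76 against 0.531 and 0.252 CPM (log2 fold change 2.24).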

How the results depend on the processing

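Scaling moved the counts of calls most. With library totals, which shift the median log2 fold change of all genes by 1.02, 8135 genes were higher in SLG and 348 lower, and on log2(TPM + 1), log2(TPM + 0.1) and log2(TPM + 1) without a filter, with shifts of 1.22, 1.53 and 0.25, there were 6897, 8355 and 7160 higher and 54, 75 and 59 lower. In TPM and in library totals Mucl2 alone fills much of an SMG library, and the other genes move with it. Smaller shifts of -0.18 with upper-quartile factors (1257 and 2228), -0.25 with totals without the most abundant genes (1169 and 2534) and -0.14 with housekeeping scaling (1298 and 2084) kept both counts within 1.5 times the main ones. DESeq2 called 1492 and 1598. Leaving out 1 library gave 1340 to 1685 higher and 1052 to 1761 lower, the lowest of both without SLG replicate 2. Of 133 named genes called, 90 were unchanged under all 20 settings that gave a value, 18 lost the call with library totals, 4 without SLG replicate 1, 7 without SLG replicate 2, 5 and 4 without SMG replicates 1 and 2, and 0 under DESeq2. The sign turned for Dnase1, which ranged from -2.95 without SLG replicate 1 to 8.51 without SLG replicate 2. On log2(TPM + 1) it turned, with and without the filter, for Lyz2 (0.29), Bhlha15 (0.35), Elf5 (0.17), Kcnma1 (0.33) and Fxyd2 (0.27). On log2(TPM + 0.1) it turned for Sema3c (1.20), Lyz2 (0.30), Bhlha15 (0.35), Elf5 (0.18), Kcnma1 (0.39) and Fxyd2 (0.27). Among genes not called, Amy1 was at -0.23 without SLG replicate 1, and with library totals Sema3c was at 0.78, Itga8 at 0.69, Pecam1 at 0.33 and Cdh5 at 0.76. Same-numbered libraries of the glands did not deviate together (correlations -0.01, -0.02 and 0.005). With 2 libraries per gland this cannot show whether same-numbered glands came from the same animal. A replicate block gave 1509 and 1529 calls. The 494 genes called alike in tissue and organoids numbered 377 to 492 under the other settings, 420 to 446 with 1 library left out and 462 with the block. With 2 libraries per gland and sources that do not say whether these are separate animals, the errors cover no known biological spread, and genes under 1 CPM rest on few counts.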

Other observations

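Further genes outside the lists, chosen after their values were seen, differed between the glands. Several proteins of the endoplasmic reticulum and Golgi were higher in SLG. Dnajc10, a disulfide reductase of the endoplasmic reticulum, was at 575 and 594 CPM in SLG and 8.82 and 8.79 CPM in SMG (log2 fold change 6.05, adjusted p = 2.82e-10), Sec23b, a coat protein of vesicles that leave it, at 564 and 615 against 92.0 and 86.5 CPM (log2 fold change 2.72, adjusted p = 1.11e-08), and the cargo receptor relative Lman1l at 526 and 591 against 17.5 and 16.7 CPM (log2 fold change 5.03, adjusted p = 2.47e-09). The Golgi membrane genes Golm1 and Tgoln1 were 16.0-fold and 8.29-fold higher, and Sel1l3 was 344-fold higher, at 404 and 477 against 1.27 and 1.29 CPM.

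Families of small secreted proteins split between the glands. Of the major urinary proteins, which bind pheromones, Mup5 was at 112 and 75.5 CPM in SLG and 682 and 656 CPM in SMG (log2 fold change -2.83, adjusted p = 1.73e-05), whereas Mup4 was at 177 and 169.9 against 0.218 and 0.258 CPM (log2 fold change 9.51, adjusted p = 1.46e-05) and Mup6 at 111 and 95.6 against 0 and 0.281 CPM (log2 fold change 9.62, adjusted p = 5.01e-05). These genes have close copies, so the split of reads among them is uncertain. Esp18 and Esp8, relatives of Esp4, were lower in SLG, at 2.15 and 2.11 against 19.2 and 22.2 CPM (log2 fold change -3.28, adjusted p = 2.05e-07) and 4.69 and 2.80 against 31.4 and 30.1 CPM (log2 fold change -3.05, adjusted p = 9.13e-05). Gal, which encodes the neuropeptide galanin, was at 30.8 and 33.6 CPM in SLG with 0 and 2 counts in the SMG libraries, a ratio of scaled counts of 1506 (95% exact interval 417 to 12436).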
